A study of Drosophila melanogaster with 382 samples.

Results

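The data described here are the slices of 2 Drosophila melanogaster embryos of a line that overexpresses bicoid (bcd) at 2.4x the wild-type level, both at cycle 14D, the mid-to-late blastoderm stage. Each embryo was cut from head to tail into 20 slices and each slice was sequenced on its own. The members were chosen by label alone: 40 slices of the 382 in the series, from 2 of its 25 embryos. Of the 40 slices, 36 have values, all 20 of embryo 1 and 16 of embryo 2, which lacks slices 1, 13, 18 and 20. The question is which genes were higher or lower in the anterior region of an embryo than in its posterior region and its middle region, and how that polarity compares with embryos with bcd or hunchback (hb) knocked down.

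The 2.4x bcd embryos come from a single transgenic line (line 20) with an eGFP-Bcd fusion protein at that level. Other genotypes labelled with the same stage serve for comparison. The bcd RNAi embryos (2) and the hb RNAi embryos (2) came from mothers in which maternal tubulin Gal4 drove a short hairpin RNA, so they are maternal knockdowns and not null mutants. Like the 2.4x bcd embryos they were prepared without carrier RNA. Per the methods, the RNAi mothers were aged for longer than the mothers of the 2.4x bcd embryos. Line and age of the mother therefore cannot be told apart in comparisons with either RNAi line. The wild-type embryo (1) was prepared with another library kit, with yeast carrier RNA and in wider slices, so that line, kit, carrier and slice width cannot be told apart in any comparison with it. A zld germline-clone embryo (1) entered the fit but is not compared. All embryos were fixed in methanol, and embryos, not slices, are the replicates.

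Bicoid is a homeodomain activator made from maternal mRNA held at the anterior pole, and its protein grades from head to tail. In the blastoderm it activates the head gap genes and hunchback, and these and the trunk and terminal gap genes then position the pair-rule and Hox genes. At the tail, torso signalling and maternal nanos act without it, so posterior genes such as brachyenteron and the pole cell RNAs mark the opposite end.

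Values are FPKM, fragment numbers scaled to transcript length and library size. Slices 1 to 7 form the anterior region, slices 8 to 13 the middle region and slices 14 to 20 the posterior region. For each embryo the FPKM of a gene was averaged over the slices of each region, giving 7, 6 and 7 slices with values in the anterior, middle and posterior regions of embryo 1 and 6, 5 and 5 in those of embryo 2. Differences are given on the log2(FPKM + 1) scale, which understates changes of low genes, with the standard error of a limma fit in which each region is compared within its own embryo. A gene was called at a Benjamini-Hochberg adjusted p below 0.05 over the 6307 genes tested, those with a mean of at least 2 FPKM in the 2.4x bcd embryos.

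Sequencing depth, estimated from the steps between FPKM values, ran between 1480000 and 4430000 fragments a slice in the 2.4x bcd embryos (median 3145000). At that median, 15 FPKM on a transcript of 1500 bases carries a counting error of 11.9%. The slices held between 5539 and 7072 genes at 1 FPKM or more.

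Several slices stood apart. In embryo 1, slice 8 (middle region) held RNA far above its neighbours: the larval cuticle genes Lcp65Ac and Cpr11B reached 570 and 403 FPKM there and were listed at 0 in slices 7 and 9, and the digestive proteases Jon99Fi and Jon99Fii, near-identical copies whose reads may be split, reached 108 and 109 FPKM. The germline RNAs pgc and osk reached 264 and 49.0 FPKM in slice 8, against 8.53 and 0.60 FPKM in slice 7. In that slice, 391 genes lay at least 2 above the mean of both neighbours on the log2(FPKM + 1) scale, a 4-fold difference. The outermost slice 1, which has 1 neighbour, had more (463), and no other slice of embryo 1 had over 286. In embryo 2, slice 19 held most of the pole cell RNA: the 6 pole cell markers (pgc, nos, gcl, ovo, osk, CycB) summed to 3196 FPKM there, and to between 101 and 164 FPKM in the other 15 slices. In embryo 1 the same sum was 673 FPKM in the last slice and between 112 and 228 FPKM elsewhere, slice 8 apart. In slice 19 of embryo 2, 710 genes lay 4-fold above slice 17, its only neighbour with values. Slice 8 of embryo 2 held the fewest genes at 1 FPKM or more (5539), with 562 genes 4-fold below its neighbours, the most of any slice. Without it, 96 genes were higher and 43 lower than in the middle region, against 89 and 39 with it. Results that rest on slice 8 of embryo 1 or slice 19 of embryo 2 are given with and without these, and the slices to leave out were chosen after the values were seen.

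**Figure D1:**
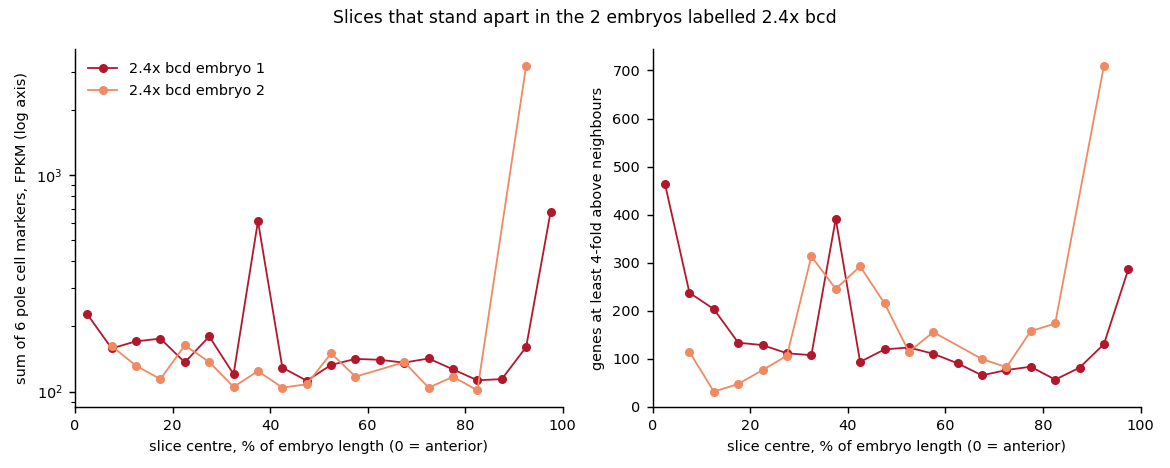
Each point is a slice of a 2.4x bcd embryo, placed by its centre as percent of length counted from the head. The left panel shows the summed FPKM of the 6 pole cell markers on a log axis and the right panel the number of genes at least 4-fold above the mean of the neighbouring slices. Slice 8 of embryo 1 (613 FPKM, 391 genes) and slice 19 of embryo 2 (3196 FPKM, 710 genes) stand above their neighbours, and slice 1 of embryo 1 is also high by genes (463).

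Between the anterior and posterior regions of the 2.4x bcd embryos, 163 genes were higher in the anterior region (2.58% of those tested) and 116 were lower (1.84%). All 279 differed in the same direction in both embryos. A call rests on the mean of these same embryos, so that agreement is largely set by the selection. The median difference over all genes tested was -0.00885. Against the middle region, 89 genes were higher in the anterior region (1.41%) and 39 were lower (0.618%). Of the anterior genes, 71 exceeded both other regions and 92 exceeded the posterior region only. Of the genes lower than in the posterior region, 20 were also lower than in the middle region. Without slice 8 of embryo 1 and slice 19 of embryo 2, 179 genes were higher and 105 lower than in the posterior region, and 122 were higher and 57 lower than in the middle region. Without embryo 1 the genes called were 179 against the posterior region and 78 against the middle region, and the middle count was 74 and 76 without the first and the second bcd RNAi embryo, which share the estimate of spread.

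The 2 embryos shared part of their polar genes. A difference of at least 1 on the log2 scale towards the anterior region was seen for 299 genes in embryo 1 and 224 in embryo 2, and 123 genes were in both, 41.1% of the first set and 54.9% of the second. Towards the posterior region the counts were 198 and 252 genes, with 83 in both. Between the anterior and middle regions, a difference of that size towards the anterior region was seen for 190 genes in embryo 1 and 294 in embryo 2, with 96 in both. Towards the middle region it was seen for 205 and 99 genes, with 35 in both. Without embryo 2, 81 genes were called higher and 63 lower than in the middle region, and without embryo 1, 61 and 17. Across the 6307 genes the 2 embryos' anterior minus posterior differences had a Pearson r of 0.59, and their anterior minus middle differences an r of 0.42, a description over genes that are not independent replicates.

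**Figure D2:**
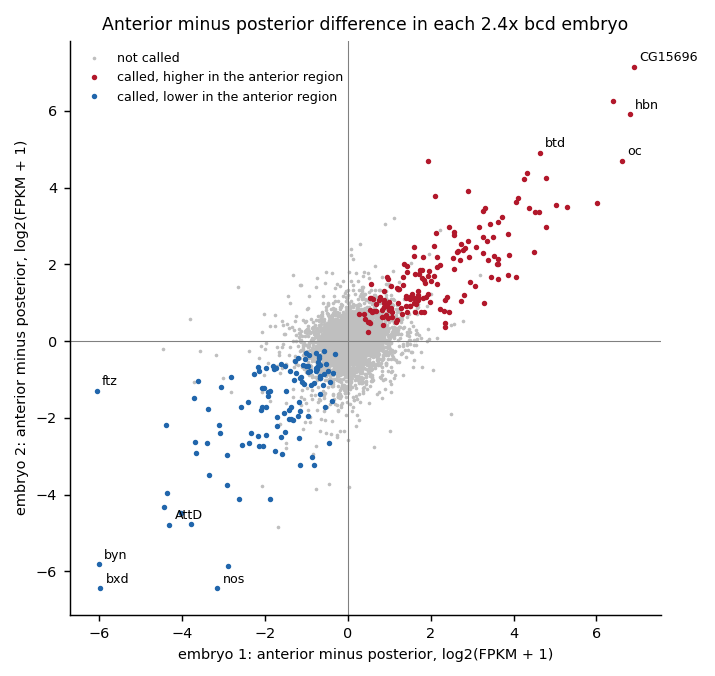
Each point is 1 of the 6307 genes, with its anterior minus posterior difference on the log2(FPKM + 1) scale in embryo 1 (horizontal) and embryo 2 (vertical). The 163 genes called higher in the anterior region (red) and the 116 called lower (blue) lie at the upper right and the lower left.

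Head gap and head patterning genes were higher in the anterior region. Of 12 genes in that list, 11 passed the filter on low values. These 11 were all called higher than in the posterior region, against 2.58% of all genes tested. Their median difference was 3.93, against -0.00885 over all genes. The head gene knot (kn) did not pass and was not tested. Without slice 8 of embryo 1 and slice 19 of embryo 2, 10 of the 10 tested were called. With the median in place of the mean over slices only 4 of 9 were called. Leaving out embryo 1, 8 of 11 were called.

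The homeobox gene orthodenticle (oc, FBgn0004102, X:8630159-8650681 in genome release 6) is a head gap gene and a direct Bicoid target. In embryo 1 its slices held a lowest, median and highest value of 42.7, 99.6 and 167 FPKM in the anterior region, and none exceeded 0.35 FPKM in the posterior region. In embryo 2 the anterior slices held 1.39, 26.02 and 46.1 FPKM, and it was listed at 0 in every posterior slice. The regions did not overlap in either embryo, and embryo 1 held several times more of the RNA. The difference was 5.66 ± 0.44 (SE, adjusted p = 1.11e-05) against the posterior region and 4.18 ± 0.44 against the middle region.

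The other head gap genes had domains further back. Buttonhead (btd, FBgn0000233, X:9694186-9697558), a zinc finger head gap gene, averaged 30.8, 54.9 and 0.3 FPKM in the anterior, middle and posterior regions of embryo 1, and 37.2, 0.3 and 0.3 FPKM in those of embryo 2. Empty spiracles (ems, FBgn0000576, 3R:13901853-13904620), a homeobox head gap gene, averaged 19.6, 14.98 and 0.0214 FPKM in embryo 1 and 20.02, 0 and 0 FPKM in embryo 2. Both were called against the posterior region (btd 4.77 ± 0.92, adjusted p = 0.00665; ems 4.36 ± 0.74, adjusted p = 0.00278) but not against the middle region (adjusted p = 0.443 and 0.157). In embryo 1 both domains ran into the middle region, and in embryo 2 neither did.

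Beside oc, 6 head genes were called against both other regions. Crocodile (croc), a forkhead gene of the clypeolabrum, averaged 81.6 FPKM in the anterior region of embryo 1 and 18.4 FPKM in that of embryo 2, and no more than 2.01 FPKM in any other region. Optix, a Six-family homeobox gene, averaged 23.7 and 10.8 FPKM in the anterior regions and at most 0.193 FPKM elsewhere. Goosecoid (Gsc), cap-n-collar (cnc), no ocelli (noc) and twin of eyeless (toy) were likewise higher than in the posterior and the middle region, with toy the smallest at 1.30 ± 0.30. The forkhead genes slp1 and slp2 were higher than in the posterior region by 4.29 ± 0.47 and 3.93 ± 0.75, and neither was called against the middle region. Without embryo 1 slp2 missed the threshold (adjusted p = 0.0583). With the end slices left out, the croc difference was 2.49 and was not called (adjusted p = 0.308).

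**Figure D3:**
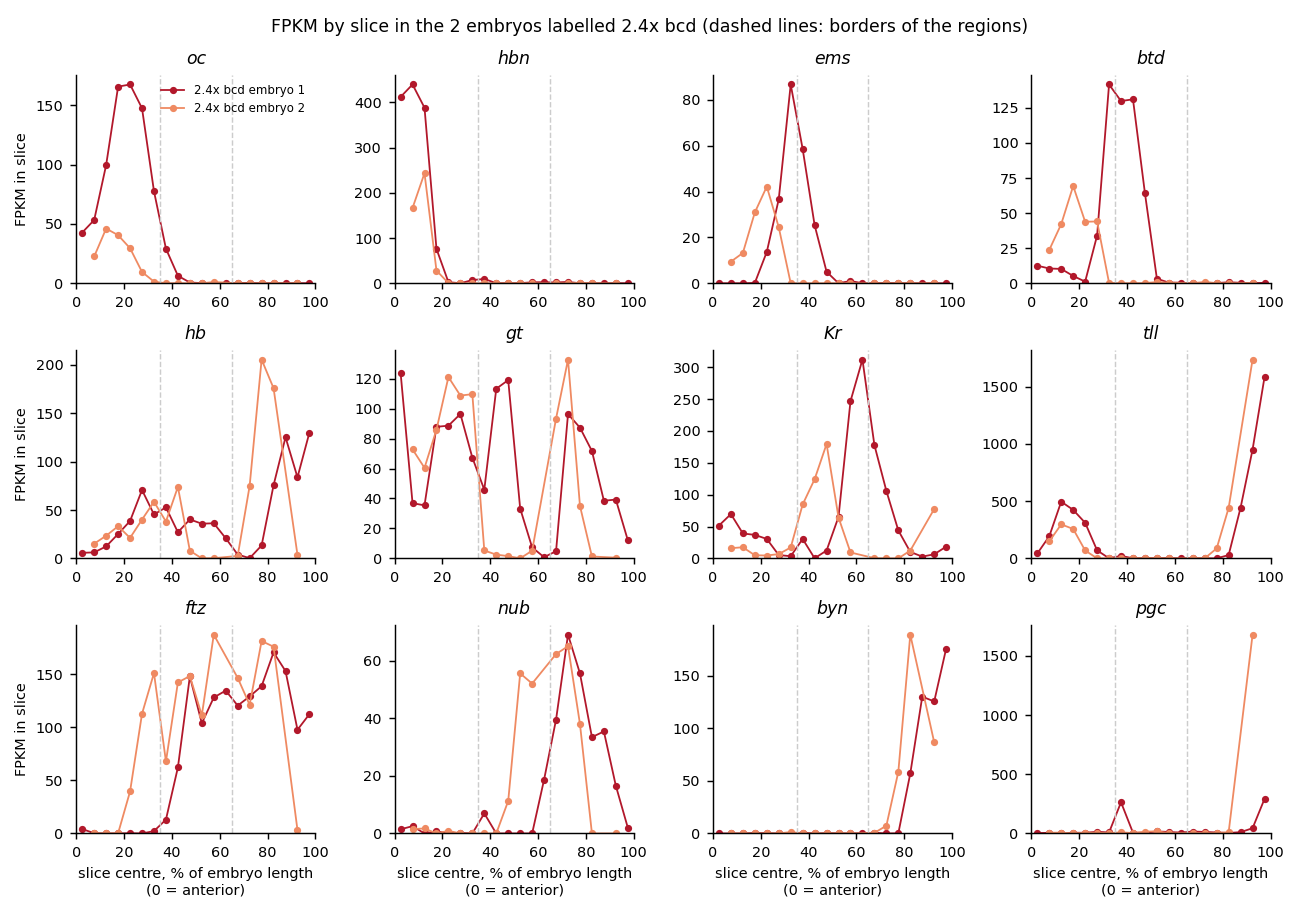
FPKM of 12 genes in each slice of the 2 embryos, against the slice centre as percent of length counted from the head, with the borders of the regions dashed. The domains of ems, btd, gt, Kr and nub lie further to the right in embryo 1 than in embryo 2, and pgc peaks in slice 8 of embryo 1 as well as at the posterior end.

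The largest anterior difference belonged to CG15696 (FBgn0038833, 3R:20847068-20847748). Its anterior slices held a lowest, median and highest value of 5.61, 31.7 and 778 FPKM in embryo 1 and 0, 9.86 and 447 FPKM in embryo 2, while it was listed at 0 in every middle and posterior slice of embryo 2. In embryo 1 the middle slices reached 16.2 FPKM and the posterior slices 5.03 FPKM, so that the anterior slices overlapped the middle ones and not the posterior ones. The difference was 7.03 ± 0.41 (adjusted p = 9.42e-07). Homeobrain (hbn, FBgn0008636, 2R:20954668-20960909), a homeobox gene, followed at 6.35 ± 0.53, with regions of 189, 2.4 and 0.7 FPKM in embryo 1 and 73.0, 0.0 and 0.2 FPKM in embryo 2. CG3502 (6.33 ± 0.53), the ecdysone-inducible gene ImpE2 (4.80 ± 0.80) and CG11905 (4.40 ± 0.42) completed the 8 largest with oc, btd and croc. The anterior slices of ImpE2 held a median of 65.8 FPKM and a highest value of 441 FPKM in embryo 1, and 0 and 196 FPKM in embryo 2. It was not called without embryo 1 (adjusted p = 0.136) or without the end slices (adjusted p = 0.117). CG11905 was not called with the median over slices.

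The heat shock protein gene Hsp83, an Hsp90 chaperone gene whose maternal RNA is kept in pole cells, was also higher anteriorly. Its lowest, median and highest anterior slices held 701, 944 and 1136 FPKM in embryo 1 and 144, 886 and 1552 FPKM in embryo 2, and the posterior slices held 77.2, 104 and 286 FPKM in embryo 1 and 66.4, 104 and 1437 FPKM in embryo 2. The regions did not overlap in embryo 1 but did in embryo 2, where the highest posterior value was that of the pole cell slice 19. The difference was 2.00 ± 0.50 (adjusted p = 0.0382). It was not called without embryo 1 (1.20, adjusted p = 0.338) or without the first or the second bcd RNAi embryo (adjusted p = 0.0753 and 0.0741).

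Some trunk and terminal gap genes were called against the posterior region. Of 11 tested, 1 was higher in the anterior than in the posterior region (knrl, 2.87 ± 0.47) and 2 were lower (nub and cad). Over all genes tested, 2.58% were higher and 1.84% were lower. The POU gene nubbin (nub), a second-tier gap gene, averaged 0.7, 4.3 and 36.0 FPKM in the anterior, middle and posterior regions of embryo 1 and 0.7, 23.8 and 33.1 FPKM in those of embryo 2 (-4.38 ± 0.68, adjusted p = 0.00143). Caudal (cad), the posterior homeobox gene, averaged 1.7, 10.8 and 27.6 FPKM in embryo 1 and 3.7, 9.1 and 28.2 FPKM in embryo 2 (-3.03 ± 0.49, adjusted p = 0.00222). Without embryo 1 the cad difference was -2.64 with an adjusted p of 0.0892.

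The terminal gap genes tailless (tll) and huckebein (hkb) were high at both ends. In the anterior, middle and posterior regions tll averaged 219, 5.3 and 429 FPKM in embryo 1 and 128, 1.02 and 453 FPKM in embryo 2. It was called against the middle region (5.57 ± 0.51, adjusted p = 7.32e-05) and not against the posterior region (-1.39 ± 0.51, adjusted p = 0.184). The same held for hkb (5.92 ± 1.40 against the middle region, adjusted p = 0.0474), whose call was lost without embryo 1 (adjusted p = 0.277), embryo 2 (0.26) or either hb RNAi embryo (0.0745 and 0.079).

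Hunchback (hb, FBgn0001180, 3R:8690980-8697822), the Bicoid target that itself represses posterior fates, was not called in either contrast (-1.28 ± 0.44 against the posterior region, adjusted p = 0.147). Its anterior, middle and posterior regions averaged 29.2, 35.5 and 61.8 FPKM in embryo 1 and 31.9, 24.01 and 92.5 FPKM in embryo 2. It is known to form a separate posterior stripe as well. Krüppel (Kr), the central gap gene, was highest in the middle region of both embryos, at 111 and 92.3 FPKM, without a call against the anterior region (adjusted p = 0.303). The mRNA of bcd itself was low and not called (adjusted p = 0.351). Its regions averaged 14.9, 13.0 and 6.35 FPKM in embryo 1 and 5.4, 3.1 and 3.9 FPKM in embryo 2. Slice 8 was the highest slice of embryo 1 at 41.4 FPKM, and embryo 2 has no values for slice 1, the most anterior.

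Positions of domains differed between the 2 embryos. A border was placed where a gene crossed 50% of its highest slice within a window of embryo length, the windows being chosen after the profiles were seen. All 13 borders measured in both embryos lay further posterior in embryo 1. For the 7 posterior borders of anterior domains the shift ran between 7.65 and 18.5% of embryo length, with a median of 12.5%. The posterior border of the anterior hb domain lay at 57.8% in embryo 1 and 45.3% in embryo 2, and that of btd at 47.0% and 28.6%. The last crossing in the window was taken for these. In embryo 1 hb was already under 50% of its highest slice (70.7 FPKM) in slice 9, at 27.0 FPKM. Slices 11 and 12 were just above that level, at 35.8 and 36.3 FPKM, so the hb border there rests on small differences. The central Kr domain ran between 55 and 69.0% in embryo 1, and between 38.2 and 51.4% in embryo 2. The anterior borders of the posterior tll and hkb domains shifted less, by 5.13 and 5.60%, and there embryo 2 lacks slices 18 and 20. No test was made, since each position is 1 value in 1 embryo.

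The 3 wild-type embryos at cycles 14C, 14D and 14E, in wider slices, gave an hb border at 50.4, 49.7 and 51.6% of length, between the values of the 2.4x bcd embryos. Their btd borders, at 40.2, 41.3 and 38.6%, also lay between them. The posterior kni border, at 80.4, 80.2 and 77.6% in wild type, lay posterior to both 2.4x bcd embryos (76.7 and 63.1%). For slp2 the 14E embryo (38.5%) lay posterior to both as well (32.8 and 25.1%). The anterior Kr border was at 46.3, 50.1 and 38.4% in wild type, so that embryo 2 (38.2%) lay beside the 14E embryo and embryo 1 (55%) lay posterior to all of them. The embryos differed in cellularization genes too: bottleneck (bnk) averaged 263, 240 and 191 FPKM in the regions of embryo 1 and 62.8, 47.7 and 59.1 FPKM in those of embryo 2, and slam, needed for membrane ingrowth, 749, 860 and 832 FPKM against 296, 239 and 300 FPKM. Their part in the difference of position was not tested.

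Weighted by FPKM, the mean position of the 163 anterior genes had a median of 33.2% of length in embryo 1 and 34.0% in embryo 2, and 84 of the 163 lay further posterior in embryo 1. For the 116 posterior genes the medians were 64.4 and 58.8%, and 95 lay further posterior in embryo 1. Only slices with values entered these means. Embryo 2 lacks slices at both ends, which moves its mean positions even for evenly spread RNA. The positions are therefore not strictly comparable between the embryos.

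**Figure D4:**
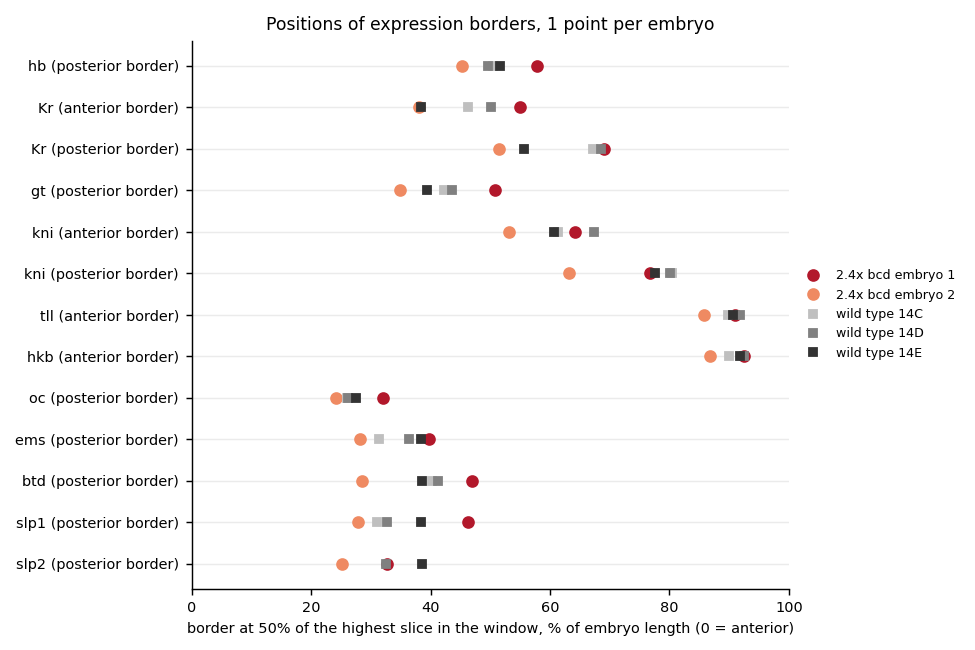
Border positions in percent of embryo length (0 = anterior) for each gene, with 1 point per embryo: embryo 1 and embryo 2 of 2.4x bcd as circles, wild type at 14C, 14D and 14E as squares. Embryo 1 lies to the right of embryo 2 in all 13 rows, and for hb the 3 wild-type embryos (49.7 to 51.6%) lie between embryo 1 (57.8%) and embryo 2 (45.3%).

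Several pair-rule genes, which divide the trunk into alternate segments, were lower in the anterior region. Over all genes tested, 1.84% were lower there than in the posterior region and 0.618% lower than in the middle region. Of 7 pair-rule genes tested, none was higher and 3 were lower in the anterior than in the posterior region: ftz (-3.68 ± 0.74), run (-2.59 ± 0.37) and eve (-2.33 ± 0.46). Against the middle region 6 of the 7 were lower, these 3 and odd, prd and opa, but without embryo 1 none of the 7 was called (ftz -1.36, adjusted p = 0.0577), nor with the median over slices. Hairy (h), which has a head domain beside its stripes, had region means of 143, 131 and 137 FPKM in embryo 1 and 146, 119 and 146 FPKM in embryo 2.

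Fushi tarazu (ftz, FBgn0001077, 3R:6864324-6866244) shows how the embryos differed. Its anterior slices held a lowest, median and highest value of 0, 0.22 and 4.17 FPKM in embryo 1 and 0, 19.9 and 151 FPKM in embryo 2. The posterior slices held 97.7, 129 and 171 FPKM in embryo 1 and 3.21, 147 and 181 FPKM in embryo 2. In embryo 1 the regions did not overlap, and in embryo 2 they did, with the stripes beginning within the anterior region and the pole cell slice at 3.21 FPKM. For eve the difference from the posterior region was not called without embryo 1 (-1.05, adjusted p = 0.332).

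Of 7 Hox genes and cofactors tested, 1 was higher and 1 lower than in the posterior region, and 3 were lower than in the middle region. The shares over all genes tested were 2.58% higher, 1.84% lower and, against the middle region, 0.618% lower. Deformed (Dfd), which specifies posterior head segments, was higher than in the posterior region (3.32 ± 0.75, adjusted p = 0.02), with anterior, middle and posterior regions of 3.6, 15.5 and 0.2 FPKM in embryo 1 and 25.6, 2.1 and 0.0 FPKM in embryo 2. The region with the highest mean differed between the embryos, and the call was lost without the first or the second bcd RNAi embryo (adjusted p = 0.0658 and 0.0646), which share the estimate of spread, or without slice 8 of embryo 2 (0.055). Antennapedia (Antp) and Ultrabithorax (Ubx), of the thorax and abdomen, and the trunk gene teashirt (tsh) were lower than in the middle region (-3.50 ± 0.55, -3.13 ± 0.67 and -2.86 ± 0.48), and the Ubx call was lost without embryo 2 (adjusted p = 0.225). The abdominal gene abd-A was lower than in the posterior region (-2.63 ± 0.50, adjusted p = 0.00573). The Hox cofactors hth and exd were not called, and the remaining genes of the 11 in the list were not tested.

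The non-coding RNA bxd of the bithorax complex gave the largest posterior difference (-6.22 ± 0.87, adjusted p = 0.000692). It averaged 0.0, 4.2 and 64.3 FPKM in the anterior, middle and posterior regions of embryo 1 and 0.1, 34.5 and 95.9 FPKM in those of embryo 2. A second RNA of the same complex, iab-8, averaged 0.0, 0.5 and 15.3 FPKM in embryo 1 and 0.2, 2.1 and 25.1 FPKM in embryo 2 (-4.25 ± 0.43). The libraries do not mark strand, so reads of these RNAs and of Hox transcripts that overlap them cannot be told apart.

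Brachyenteron (byn, FBgn0011723, 3L:11927693-11935919), the T-box gene of the hindgut primordium, had the smallest adjusted p of the posterior genes named. Its posterior slices held a lowest, median and highest value of 0, 57.0 and 176 FPKM in embryo 1 and 0.60, 58.6 and 189 FPKM in embryo 2, and no anterior or middle slice of either exceeded 1.36 FPKM. The foremost posterior slices overlapped the anterior ones, and the highest were slice 20 in embryo 1 and slice 17 in embryo 2. The difference was -5.92 ± 0.37 (adjusted p = 1.18e-06). The gut gene fork head (fkh) was high at the tail and, in embryo 1, at the head (22.6, 1.0 and 75.0 FPKM) and did not pass (adjusted p = 0.0655). The other tail genes tested, srp and bowl, were not called.

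Germ plasm RNAs rested on few slices. The translational repressor nanos (nos) averaged 0.7, 2.4 and 13.9 FPKM in the anterior, middle and posterior regions of embryo 1 and 0.5, 1.0 and 131 FPKM in those of embryo 2 (-4.79 ± 0.69, adjusted p = 0.000832). Polar granule component (pgc), which keeps transcription low in pole cells, averaged 6.6, 52.2 and 55.6 FPKM in embryo 1 and 4.8, 9.6 and 340 FPKM in embryo 2 (-4.39 ± 0.89, adjusted p = 0.00897). Without slice 8 of embryo 1 and slice 19 of embryo 2 neither was called (nos -1.67, adjusted p = 0.139; pgc -1.53, adjusted p = 0.339). In embryo 1 nos was highest in the last slice, at 86.8 FPKM. Of the other list members osk, gcl and CycB were not called, and ovo did not pass the filter. In bulk slices, more cells of a type and more RNA per cell cannot be told apart.

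The antibacterial peptide gene Attacin-D (AttD, FBgn0038530, 3R:17625268-17626086) was graded towards the tail in both embryos. Its lowest, median and highest slices in the posterior region held 27.5, 48.0 and 82.4 FPKM in embryo 1 and 76.8, 105 and 111 FPKM in embryo 2. In the anterior region they held 0, 0.54 and 6.45 FPKM in embryo 1 and 0, 2.81 and 6.74 FPKM in embryo 2. The regions did not overlap in either embryo (-4.55 ± 0.40, adjusted p = 1.99e-05). CG2930 completed the 8 largest posterior differences (-4.27 ± 0.70), and it was not called without embryo 2 (adjusted p = 0.0748).

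Some of the dorsal-ventral genes were called. Of 12 dorsal ectoderm and amnioserosa genes tested, 4 were higher in the anterior than in the posterior region, against 2.58% of all genes tested. They were the LIM-homeobox gene tup (2.25 ± 0.42), the peptidase gene Ance (2.63 ± 0.35), the Dpp-activating protease gene tld (1.72 ± 0.27) and the GATA cofactor gene ush (1.21 ± 0.30). The list's median difference was 0.879. None of 5 mesoderm genes was called, twist (twi) averaging 224, 209 and 345 FPKM in embryo 1 and 164, 146 and 173 FPKM in embryo 2. Of 8 neuroectoderm and midline genes, SoxN was higher (1.47 ± 0.24) and the FGF ligand gene ths lower (-2.65 ± 0.38). Of the other lists, the segment polarity genes (5 tested), the cellularization genes (4) and the 4 housekeeping genes measured gave no call. With 4.42% of all genes tested called, no call is unremarkable in lists of this size, the mesoderm list included.

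Against the middle region the 5 largest anterior differences were those of CG15696, hbn, hkb, ImpE2 and tll, and the 5 largest in the other direction those of bxd, ftz, Antp, CG4702 and Ubx. CG4702 averaged 7.0, 190 and 49.7 FPKM in embryo 1 and 42.2, 139 and 15.2 FPKM in embryo 2 (-3.13 ± 0.72, adjusted p = 0.0434), and missed the threshold without embryo 1 (adjusted p = 0.364), either bcd RNAi embryo (0.0984 and 0.0973), the second hb RNAi embryo (0.0503) or slice 8 of embryo 2 (0.056). The bxd call against the middle region was lost without either embryo (adjusted p = 0.0751 without embryo 1 and 0.63 without embryo 2) and without either bcd RNAi embryo (0.0819 and 0.0812).

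The same regions were then compared with those of bcd RNAi embryos, made with the same kit but from older mothers. The anterior minus posterior difference itself differed between 2.4x bcd and bcd RNAi for 91 genes (1.44%), 57 of them more anterior in 2.4x bcd and 34 more posterior. The 2 bcd RNAi embryos decide that count: it was 12 without the first and 3 without the second, and 54 without embryo 1 of 2.4x bcd. Within bcd RNAi alone no gene was called (0 of 6307 by limma, 465 at an unadjusted p under 0.05), and between 0 and 7 under the alternatives. Over the same genes, 160 were called within hb RNAi (2.54%). Within wild type 98 were called (1.55%), where the spread comes from the other lines alone, since it is 1 embryo. The genes tested were chosen by their level in the 2.4x bcd embryos, so genes seen only in bcd RNAi do not enter.

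Of the 11 head genes, 5 had a larger anterior difference in 2.4x bcd than in bcd RNAi, against 0.904% of all genes tested. They were oc, slp1, croc, Optix and Gsc. The anterior regions of oc averaged 108 and 24.9 FPKM in the 2.4x bcd embryos and 0.0 and 0.0 FPKM in the bcd RNAi embryos (difference of differences 5.70 ± 0.63, adjusted p = 0.00115, and 0.0569 without the second bcd RNAi embryo). CG15696 averaged 205 and 141 FPKM in the anterior regions of the 2.4x bcd embryos, against 0.0 and 0.2 FPKM in those of bcd RNAi (6.91 ± 0.57, adjusted p = 9.22e-05). CG3502 (6.16 ± 0.76), ImpE2 (6.63 ± 1.13) and the nuclease gene DNaseII (4.81 ± 0.97) were the other 3 of the 5 largest, and each lost its call without at least 1 bcd RNAi embryo. For btd and ems no region of bcd RNAi exceeded 0.552 FPKM, but the difference did not pass (adjusted p = 0.117 and 0.0621).

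The 5 largest differences in the other direction were those of ftz, Antp, byn, AttD and run. Of the lists, 3 of 7 pair-rule genes and 1 of 7 Hox genes and cofactors were lower in this comparison, against 0.539% of all genes tested. So was 1 gene each of the hindgut, midgut and tail (4 tested), neuroectoderm and midline (8) and cellularization (4) lists. Of 12 dorsal ectoderm and amnioserosa genes 2 were higher. Of 11 trunk and terminal gap genes 0 were lower, which at that share does not set the list apart. Of those 11, 1 (knrl) was higher, against 0.904% of all genes tested. Ubx, tsh, abd-A, eve, opa and nub did not pass. The anterior region of ftz averaged 1.0 and 50.6 FPKM in the 2.4x bcd embryos and 1069 and 891 FPKM in the bcd RNAi embryos, while its posterior region averaged 132 and 126 FPKM in 2.4x bcd and 432 and 374 FPKM in bcd RNAi (-4.96 ± 1.05, adjusted p = 0.0314). Antp averaged 0.1 and 0.0 FPKM in the anterior regions of 2.4x bcd, against 68.5 and 55.3 FPKM in those of bcd RNAi (-4.95 ± 0.77, adjusted p = 0.00633). The anterior region of run averaged 3.1 and 9.0 FPKM in 2.4x bcd and 137 and 149 FPKM in bcd RNAi (-3.63 ± 0.52), and that of byn 0.1 and 0.2 FPKM against 23.01 and 16.9 FPKM (-4.63 ± 0.52). For byn the limma call was lost with the end slices left out (-2.85, adjusted p = 0.322) and with the median over slices (-3.02, adjusted p = 0.656). These calls, too, were lost without one or the other bcd RNAi embryo (adjusted p = 0.249 and 0.35 for ftz, 0.103 and 0.173 for Antp, 0.0916 and 0.115 for run, and 0.0569 for byn without the second). AttD, the remaining 1 of the 5, was listed at 0 or near it in every region of bcd RNAi (-4.50 ± 0.57, adjusted p = 0.00188, and 0.0741 and 0.0735 without either embryo).

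**Figure D5:**
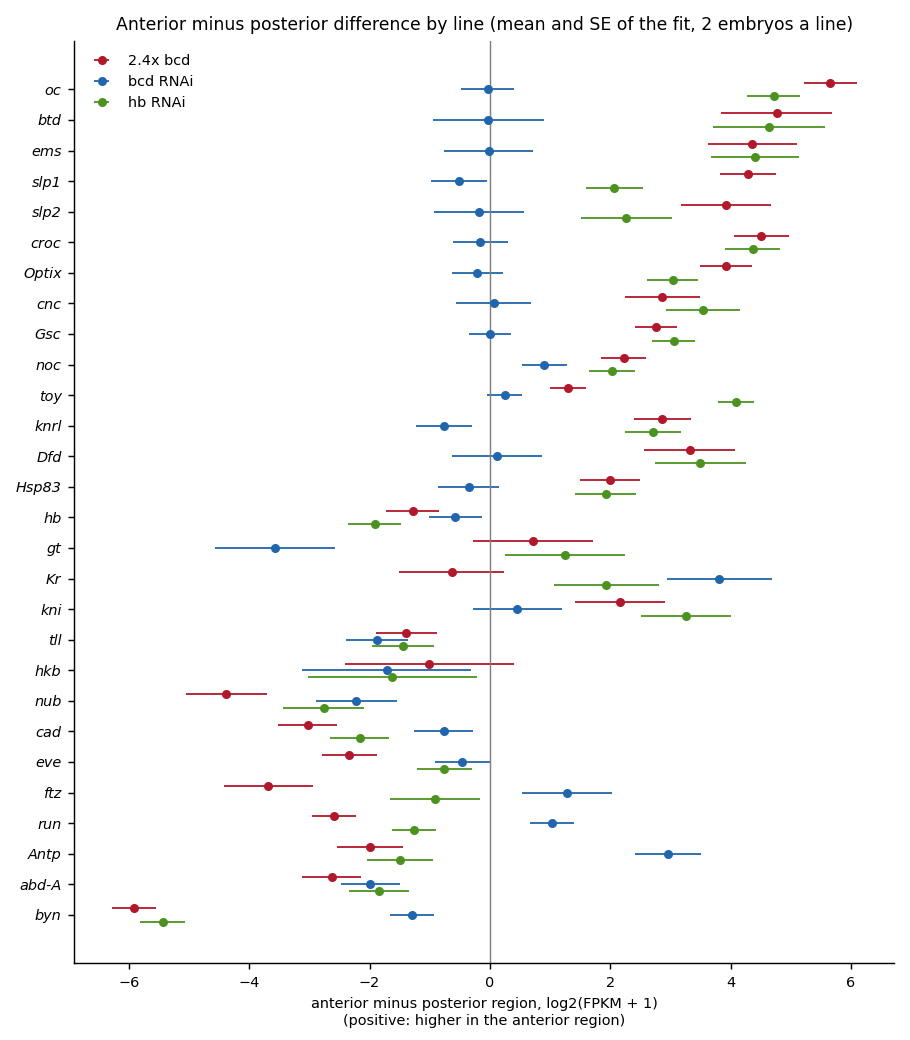
Anterior minus posterior difference on the log2(FPKM + 1) scale with its SE, for 28 genes in 2.4x bcd (red), bcd RNAi (blue) and hb RNAi (green), 2 embryos each. For oc the 2.4x bcd value is 5.66 and the bcd RNAi value -0.04, and for Antp they are -1.99 and 2.97, with hb RNAi at 4.71 and -1.49.

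Against hb RNAi, 14 genes differed in their anterior minus posterior difference (0.222%), 4 upward and 10 downward. The count was 1 without the first hb RNAi embryo and 0 without the second, 23 without embryo 1 of 2.4x bcd, 41 without embryo 2, and 6 and 4 without the first and the second bcd RNAi embryo. None of the trunk gap genes was among them. Of 4 cellularization genes 1 was lower, against 0.159% of all genes tested. For oc the difference of differences was 0.95 ± 0.63 (adjusted p = 0.766) and for byn -0.48 ± 0.52 (adjusted p = 0.863), which does not show that the lines are alike. The head gene toy was called: its anterior region averaged 4.0 and 5.6 FPKM in 2.4x bcd and 32.9 and 27.3 FPKM in hb RNAi (-2.79 ± 0.42, adjusted p = 0.0183).

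Among the 14 were AttD (-4.55 ± 0.57), CG8870 (-3.28 ± 0.55) and CG6836 (-3.06 ± 0.48), each posterior in both 2.4x bcd embryos and at most 0.333 FPKM in every region of the bcd RNAi, hb RNAi and wild-type embryos. The posterior regions of CG8870 averaged 9.7 and 25.0 FPKM and those of CG6836 12.1 and 13.7 FPKM in 2.4x bcd. The cuticle protein gene Cpr66D was the anterior counterpart: 15.7 and 11.4 FPKM in the anterior regions of 2.4x bcd, against at most 1.01 FPKM in any region of the other 3 lines. The highest anterior region of sad, an ecdysone synthesis gene, averaged 34.8 FPKM in 2.4x bcd and 15.9 FPKM in hb RNAi. CG8870, CG6836, Cpr66D and sad were named after their values were seen. Genes were tested only by their level in the 2.4x bcd embryos, so a gene seen only in another line could not appear here.

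Against the single wild-type embryo, 39 genes differed (0.618%), 21 upward and 18 downward. Being 1 embryo, wild type has no spread of its own, and these calls assume that it varies like the other lines. Against the 14C wild-type embryo 67 genes differed, 49 of them upward, and against the 14E embryo 165, of which 138 were upward. The 14D count was 15 without the first or the second bcd RNAi embryo. The largest was bcd: its anterior region averaged 14.9 and 5.4 FPKM in 2.4x bcd and 182 FPKM in wild type (-6.18 ± 0.62, adjusted p = 0.00042). In the 14E wild-type embryo no slice with values in the first 65% of length held more than 7.19 FPKM of bcd. That embryo has no values for slice 1, at the anterior pole where bcd mRNA is held. Embryo 2 of 2.4x bcd lacks slice 1 too. In the 14E embryo the anterior region has values in slices 2 and 3 only, at an estimated 346000 and 353000 fragments. The median of the 14E embryo was 389000 fragments a slice, against 3145000 in 2.4x bcd. Calls and missed calls against the 14E embryo therefore rest on shallow data. The anterior region of hb averaged 29.2 and 31.9 FPKM in 2.4x bcd and 242 FPKM in wild type (-4.33 ± 0.76, adjusted p = 0.0202). The pair-rule gene prd differed by -4.90 ± 0.52 and the Sox gene D by 3.22 ± 0.45. These 4 genes were also called against the 14C wild-type embryo, and none was called against the 14E embryo. There the difference was -0.27 ± 0.63 for bcd (adjusted p = 0.912), -1.98 ± 0.76 for hb (adjusted p = 0.238), 0.30 ± 0.52 for prd (adjusted p = 0.869) and 0.45 ± 0.45 for D (adjusted p = 0.742). The levels of other genes also differed between these embryos. In the regions of the 2.4x bcd embryos hth averaged between 85.7 and 292 FPKM, and nkd between 27.7 and 38.5 FPKM. In the 14D wild-type embryo hth averaged at most 0.7 FPKM and nkd at most 0.6 FPKM, and at 14C at most 0.96 and 0.553 FPKM. At 14E both were higher. There hth averaged 3.53, 24.4 and 7.24 FPKM and nkd 10.4, 6.98 and 12.04 FPKM in the anterior, middle and posterior regions. The part of these levels in the differences above was not tested.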

How the data were processed

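Single embryos were sliced and each slice was sequenced with SMARTseq2 (TruSeq with yeast carrier for wild type and zld). Per the labels and methods, the authors mapped reads with RNA-STAR 2.3.0.1 to FlyBase release 6.03, made FPKM per gene with Cufflinks 2.2.1, and left out slices with too little fly sequence or poor mapping. A second table made with kallisto 0.42 has columns named FPKM, but every column has the same fixed total. The deposited numbers were therefore treated as TPM and used as an alternative.

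The 20 slices of each 2.4x bcd embryo were split by slice centre into 3 regions (1 to 7, 8 to 13, 14 to 20), and log2(mean FPKM + 1) was fitted with limma 3.58.1 (trend) over the 8 embryos and 3 regions at cycle 14D, with embryo as a block and line by region terms, 6 residual degrees of freedom and Benjamini-Hochberg adjustment. The blocks pair regions of the same animal, not samples by number. Slice centres use the slice numbers in the labels. Depth was estimated from FPKM steps of single-transcript genes of at least 1500 bases. Fit and depth steps were tested on simulated data.

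Named genes were the members of 12 lists, the 8 largest called differences in each direction against the posterior region, the 5 largest against the middle region and the 5 largest against bcd RNAi. Members and lists were chosen with earlier results of these data known. Gene positions come from an Ensembl annotation of release 6. Promoter sequences were not used here. The labels do not say whether embryos share a mother, so p-values measure the spread between these embryos. Alternatives changed the table, pseudocount, filter, scaling, slices and embryos.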

Additional observations from a re-analysis of the deposited data

Results flagged for a closer look

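Within each region of each 2.4x bcd embryo, a slice was marked where its gap to the next slice was large for the region's range, a rule that chance meets in about 1 in 20 of the 12 groups tried. In embryo 1, slice 8 was the highest of the 6 middle slices in pole cell marker RNA (613 FPKM) and in genes at 1 FPKM or more (7072). Slice 20 of the same embryo (673 FPKM) and slice 19 of embryo 2 (3196 FPKM) were the highest posterior slices in pole cell marker RNA.

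The anterior minus posterior difference itself differed between lines, by the interaction term of the limma fit, for 91 genes against bcd RNAi, 14 against hb RNAi and 39 against wild type. Against bcd RNAi the largest positive terms, on the log2(FPKM + 1) scale, were those of CG15696 (6.91), ImpE2 (6.63), CG3502 (6.16), oc (5.70) and DNaseII (4.81). The largest negative terms were those of ftz (-4.96), Antp (-4.95), byn (-4.63), AttD (-4.50) and run (-3.63). All 10 are values relative to the 2 bcd RNAi embryos, and of these only CG15696 kept its call with each of those embryos left out in turn.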

How the results depend on the processing

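All 52 named differences called in the main analysis kept their direction under the settings tried, but 171 of their 1165 values were no longer called. Dfd against the middle region, not called with both embryos, ran from -1.84 without embryo 2 to 3.10 without embryo 1, changing sign (adjusted p = 0.0441 without embryo 2). At 15 FPKM the counting error of a slice was 11.9% in 2.4x bcd. In wild type it was 18.5% at 14C, 21.2% at 14D and 33.8% at 14E.

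Counts of called genes for the anterior against the posterior region (279) were 179 to 244 with 1 embryo left out at a time, 162 with a filter at 10 FPKM and 87 with no pairing of regions by embryo. Against the middle region (128 genes, 69.5% of them higher) they were 74 to 144 with 1 embryo left out, 75 with the filter at 10 FPKM, 38 with no pairing, 70 with only the 2 embryos labelled 2.4x bcd, 78 with the median of slices, 85 without limma's trend and 57 with median-ratio scaling, of which 87.7% were higher. With TPM the median of all genes in this contrast moved to 0.144, against 0.0242 in FPKM, and that against wild type to -0.113, against -0.0527.

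Against bcd RNAi (91) the counts were 3 to 122 with 1 embryo left out, 55 without a filter, 48 with the filter at 10 FPKM, 20 with no pairing, 38 with median-ratio scaling and 56 without the trend. Against hb RNAi (14) they were 0 to 41 with 1 embryo left out, 5 with a pseudocount of 0.1, 8 with the filter at 10 FPKM, 7 with a filter of 15 FPKM in one slice, 0 with no pairing, 5 with median-ratio scaling, 9 without the trend and 22 without slices 8 of embryo 1 and 19 of embryo 2. Against wild type (39) they were 15 to 56 with 1 embryo left out, 87 with a pseudocount of 0.1, 1 with no pairing, 7 with median-ratio scaling, 62 without end slices, 65 with regions over slices with values, and 165 and 67 with the 14E and 14C wild-type embryos. The causes were not tested. Pairing here means the block of 3 regions within 1 embryo. Leaving out 3 bcd RNAi slices with few genes, or slice 8 of embryo 2, chosen after seeing the data, moved no count by over 1.5 times.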
